A study of Mus musculus with 18 samples.

Results

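The genes of the condensin complexes and of topoisomerase II were examined in ED1SQ4 murine lung cancer cells, a line derived from a lung cancer of a cyclin E-overexpressing transgenic mouse. Members were chosen by gene symbol: the 8 condensin subunits *Smc2*, *Smc4*, *Ncapd2*, *Ncapg*, *Ncaph*, *Ncapd3*, *Ncapg2* and *Ncaph2*, and the 2 genes of type II topoisomerase, *Top2a* and *Top2b*. All 10 were found among the 55450 genes of the table, and all 10 passed the filter on low counts in each comparison. Cells had been treated for 72 hours with vehicle or with 0.5 μM CYC065, an inhibitor of CDK2 and CDK9. RNA was sequenced from unsorted cells and from cells sorted by DNA content into diploid (2N) and polyploid (4N) populations, which gives 6 conditions. A 4N gate on DNA content also takes G2 and mitotic cells of a diploid cycle, and these cannot be told apart from polyploid cells in the files.

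Each condition had 3 columns of RSEM expected counts. The sample titles call the 3 columns replicates 1 to 3. However, the 3 carried 1 library name with part numbers, and genes with whole counts differed between them by no more than sampling noise (chi-square per degree of freedom 0.992 to 1.02). Genes with fractional counts differed by more (4.94 to 8.85), and *Ncapd2*, *Ncaph2* and *Top2a* had fractional values in 18, 15 and 4 of the 18 columns, so their counting intervals may be too narrow. Over the 10 genes the columns of a condition spanned 0.185 to 12.3% of their mean. They were therefore summed and counted as 1 library per condition. The 6 libraries held 54750168 to 62795450 counts. There was no replicate check, so the intervals given cover counting error only and no *P* value is given for the main results. A gene was called when its log2 ratio was beyond 1 in either direction, and levels are TMM-scaled CPM, that is, counts relative to library size. Lung lineage markers were close to absent, with *Nkx2-1* and *Scgb1a1* at 0 in all 6 libraries and a summed level of at most 0.0739 CPM, and 4 epithelial markers summed to 0.331 to 1.15 CPM. The 4 fibroblast markers (*Col1a1*, *Col1a2*, *Pdgfra* and *Dcn*) summed to 5987 to 14754 CPM, and their sum was higher with CYC065 than with vehicle in 2N, 4N and unsorted cells alike. Leukocyte markers summed to 3.45 to 23.8 CPM, mainly from *Cd68*, also higher with CYC065. Endothelial markers summed to 0.523 to 1.88 CPM. The part of these markers in the results was not tested.

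Condensins are ring-shaped complexes that extrude DNA loops and fold chromatin into rod-shaped mitotic chromosomes. Condensin I and condensin II share the ATPase pair SMC2 and SMC4 and differ in their other subunits. Condensin I carries the kleisin NCAPH and the HEAT-repeat proteins NCAPD2 and NCAPG, and reaches the chromosomes after the nuclear envelope breaks down. Condensin II carries NCAPH2, NCAPD3 and NCAPG2 and is nuclear throughout the cycle. Topoisomerase II passes a DNA double strand through another and so removes the links between sister chromatids. TOP2A is the isoform of proliferating cells, is made mainly in S and G2 phase and is needed for chromosome segregation. TOP2B is also expressed in cells that do not divide and acts in transcription.

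The pair of topoisomerase II genes gave the sharpest contrast in these data, and 2 condensin genes of similar change differed in what stands before their start sites. Promoter windows of RefSeq (build GRCm38.p6, 250 bases before and 50 after the annotated start) were matched for 9 of the 10 genes, and none was matched for *Smc4*. Each is printed from 5′ to 3′ on the strand of its gene, with capitals for 3 motifs searched on both strands: the cell cycle homology region, CHR (TTTGAA or TTCGAA), the CCAAT box (CCAAT) and an E2F site (TTTCGCGC, TTTGGCGC, TTTCCCGC or TTTGCCGC). No motif matches overlapped each other in these windows. *Top2a* and *Top2b* are shown because they are paralogs with opposite orders of treatment, and *Ncapg* and *Ncaph* because both belong to condensin I and had nearly the same 4N to 2N ratio after CYC065. The windows are chr11:99024140-99024439 (minus strand) for *Top2a*, chr14:16364956-16365255 (plus strand) for *Top2b*, chr5:45669675-45669974 (plus strand) for *Ncapg* and chr2:127133905-127134204 (minus strand) for *Ncaph*.
Top2a: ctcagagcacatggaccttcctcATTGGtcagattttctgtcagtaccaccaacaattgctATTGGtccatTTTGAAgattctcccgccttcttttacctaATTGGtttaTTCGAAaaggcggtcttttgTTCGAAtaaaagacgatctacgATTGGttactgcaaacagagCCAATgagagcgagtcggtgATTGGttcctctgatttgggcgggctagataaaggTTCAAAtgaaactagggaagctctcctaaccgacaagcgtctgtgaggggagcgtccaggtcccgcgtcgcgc
Top2b: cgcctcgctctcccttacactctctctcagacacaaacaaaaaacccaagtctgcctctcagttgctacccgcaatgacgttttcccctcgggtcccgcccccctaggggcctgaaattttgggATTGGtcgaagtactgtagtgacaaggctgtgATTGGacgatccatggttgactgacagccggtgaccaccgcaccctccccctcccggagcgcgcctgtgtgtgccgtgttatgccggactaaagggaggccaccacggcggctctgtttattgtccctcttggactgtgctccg
Ncapg: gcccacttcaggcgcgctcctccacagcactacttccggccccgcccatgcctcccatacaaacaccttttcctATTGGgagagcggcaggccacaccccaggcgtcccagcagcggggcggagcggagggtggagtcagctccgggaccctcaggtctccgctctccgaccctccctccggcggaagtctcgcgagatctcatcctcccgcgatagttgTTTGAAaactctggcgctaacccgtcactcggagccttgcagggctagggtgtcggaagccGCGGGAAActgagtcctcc
Ncaph: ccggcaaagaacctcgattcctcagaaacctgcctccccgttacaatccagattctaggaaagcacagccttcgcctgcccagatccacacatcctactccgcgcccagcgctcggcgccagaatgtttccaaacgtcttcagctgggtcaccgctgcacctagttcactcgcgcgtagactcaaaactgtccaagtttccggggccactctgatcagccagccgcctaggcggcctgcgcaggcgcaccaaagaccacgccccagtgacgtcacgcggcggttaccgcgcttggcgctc
The *Top2a* window held 4 CHR matches and 6 CCAAT boxes and no E2F match. Of 32851 mouse promoter windows of this length, 0.0244% held at least 4 CHR matches and 0.0791% held at least 6 CCAAT boxes. These cuts are the counts of the *Top2a* window itself, so the shares are no test of it. G and C made up 47.7% of the *Top2a* window, against 58.3% for *Top2b*, 65.0% for *Ncapg* and 61.3% for *Ncaph*. The shares were not matched for this. The *Top2b* window held 2 CCAAT boxes and no CHR or E2F match, and 11.7% of all windows held at least 2 CCAAT boxes. The *Ncapg* window held 1 match of each motif, with the CHR match beginning 30 bases before the start and the E2F match 31 bases after it. The *Ncaph* window held none of the 3. Over the 9 genes with a window, 6 held a CHR match, 5 a CCAAT box and 3 an E2F match, and the shares over all windows were 19.2%, 37.4% and 2.26%. The remaining matches were 3 CCAAT boxes, 1 CHR and 1 E2F site for *Ncapd2*, 2 CHR and 1 CCAAT box for *Smc2*, 1 CHR and 2 E2F sites for *Ncapg2*, 1 CHR for *Ncaph2* and none for *Ncapd3* in its upstream window. A second *Ncapd3* window, at chr9:27060166-27060465, held 1 CHR match and is not in these counts. These matches describe the letters of the windows only, and their part in the levels was not tested.

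*Top2a* (ENSMUSG00000020914.17, chr11:98992943-99024189, minus strand, mm10) had the highest level per kilobase of exon among the 10 genes in every library except CYC065 2N, where it had 28.2 CPM per kilobase and *Ncaph2* 28.9. That exception rests on merged exon length: per kilobase of the longest transcript, *Top2a* had 48.6 CPM there and *Ncaph2* 36.8. With vehicle it had 1010 CPM in 2N, 1451 in 4N and 881 in unsorted cells, and with CYC065 it had 254, 704 and 325 CPM. The highest library was thus vehicle 4N and the lowest CYC065 2N, 5.72-fold apart, and none of the 6 counting intervals overlapped. The share of all genes whose 6 intervals lie apart was not counted, here or for the genes below. As compared with vehicle, the log2 ratio of CYC065 was -1.99 in 2N cells (95% counting interval -2.02 to -1.97), -1.04 in 4N cells (-1.06 to -1.03) and -1.44 in unsorted cells (-1.46 to -1.41).

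*Top2b* (ENSMUSG00000017485.11, chr14:16365179-16435462, plus strand) had 145 CPM in 2N, 130 in 4N and 155 in unsorted cells with vehicle, and 155, 160 and 171 CPM with CYC065. The range from lowest to highest was 1.32-fold, with the order of the treatments reversed and vehicle 4N cells lowest. CYC065 unsorted cells were highest with TMM, but with library size scaling they had 161 CPM and lay under CYC065 2N (166) and 4N cells (172). The intervals of CYC065 4N and CYC065 2N overlapped, as did those of CYC065 2N and vehicle unsorted cells. The log2 ratio of CYC065 to vehicle was 0.09 (0.05 to 0.14) in 2N, 0.30 (0.26 to 0.34) in 4N and 0.15 (0.11 to 0.19) in unsorted cells. Each is under the fold used for calls and has no replicate behind it.

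**Figure D1:**
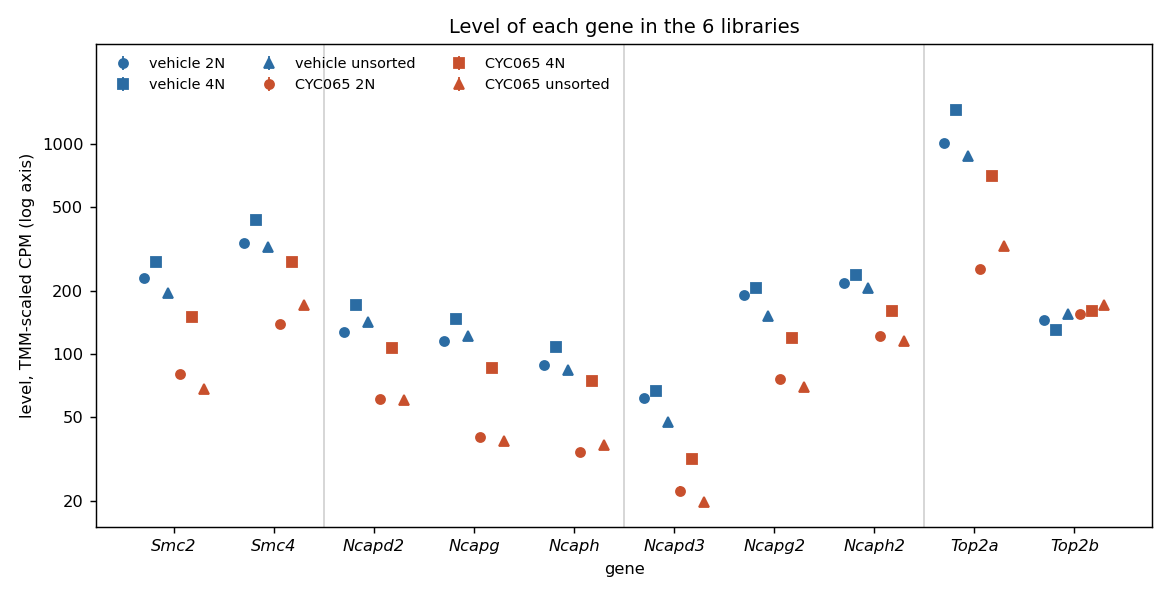
Level of the 10 genes in the 6 libraries. The vertical axis is TMM-scaled CPM on a log scale, blue marks vehicle and orange CYC065, circles mark 2N, squares 4N and triangles unsorted cells, and bars are 95% counting intervals, mostly smaller than the points. *Top2a* runs from 254 to 1451 CPM, while all 6 points of *Top2b* lie between 130 and 171 CPM.

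The ratio of the paralogs within a library does not depend on how libraries are scaled. Per kilobase of exon, *Top2a* stood 11.3 times above *Top2b* in vehicle 2N cells and 2.65 times above it in CYC065 2N cells. In 4N cells it stood 18.1 times above with vehicle and 7.14 times with CYC065, and in unsorted cells 9.23 and 3.07 times. The within-library ratio was therefore 4.25-fold lower with CYC065 in 2N, 2.53-fold lower in 4N and 3.00-fold lower in unsorted cells, and *Top2a* remained the more abundant gene in every library.

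The SMC pair common to both condensins was lower with CYC065 in every population. *Smc2* (ENSMUSG00000028312.19, chr4:52439243-52488260) had 230, 275 and 195 CPM in vehicle 2N, 4N and unsorted cells, and 80.0, 149 and 68.1 CPM in the same populations after CYC065. *Smc4* (ENSMUSG00000034349.14, chr3:69004738-69034623) had 338, 436 and 323 CPM with vehicle, and 140, 274 and 171 CPM after CYC065. For both genes the 3 vehicle libraries were above all 3 CYC065 libraries and no counting intervals overlapped. The log2 ratio of CYC065 to vehicle was -1.52 (-1.57 to -1.47) for *Smc2* and -1.28 (-1.31 to -1.24) for *Smc4* in 2N cells. In 4N cells the same ratio was -0.88 (-0.92 to -0.85) for *Smc2* and -0.67 (-0.70 to -0.64) for *Smc4*.

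Although their proteins pair in equal numbers, the transcripts did not stay in 1 proportion. Per kilobase, the ratio of *Smc2* to *Smc4* was 0.647 in 2N, 0.600 in 4N and 0.575 in unsorted cells with vehicle. After CYC065 it was 0.545, 0.518 and 0.379. It was thus lower with CYC065 in each population, most in unsorted cells, where it was 1.52-fold lower, and in 2N and 4N cells by 1.19-fold and 1.16-fold.

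The 3 subunits of condensin I followed the same order of treatments. *Ncapd2* (ENSMUSG00000038252.13, chr6:125168007-125191701) had 127, 170 and 143 CPM in vehicle 2N, 4N and unsorted cells and 60.7, 107 and 60.5 CPM after CYC065. *Ncapg* (ENSMUSG00000015880.13, chr5:45669919-45700546) had 116, 146 and 122 CPM with vehicle and 40.1, 86.1 and 38.5 CPM after CYC065. *Ncaph* (ENSMUSG00000034906.15, chr2:127103809-127133954), the kleisin that closes the ring, had 88.4, 108 and 83.4 CPM with vehicle and 34.3, 74.6 and 36.8 CPM after CYC065. In each gene the CYC065 2N and CYC065 unsorted libraries were the lowest, with overlapping intervals, and CYC065 4N cells lay between them and the vehicle libraries. With library size scaling *Ncaph* was nearly level in CYC065 4N and vehicle unsorted cells, at 80.5 and 81.2 CPM. The log2 ratio of CYC065 to vehicle in 2N cells was -1.07 (-1.12 to -1.01) for *Ncapd2*, -1.53 (-1.60 to -1.46) for *Ncapg* and -1.37 (-1.44 to -1.29) for *Ncaph*. In 4N cells it was -0.67, -0.76 and -0.53.

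Some members share sequence with other genes. Exons of *Ncapd2* contain *Scarna10*, a small Cajal body RNA gene on the same strand, and 2.92% of the 50-base stretches of *Ncapd2* transcripts also occur in another gene. For *Ncaph2* the share was 5.91%, mostly with the pseudogene *Gm7535*, which had at most 7 counts in a library. *Scarna10* went the other way, at 66.8 CPM in vehicle 2N and 101 CPM in CYC065 2N cells. The part of shared reads in the *Ncapd2* values was not tested.

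The condensin II subunits were also lower with CYC065. *Ncapd3* (ENSMUSG00000035024.16, chr9:27030175-27095315) had the lowest level per kilobase of the 10 genes in all 6 libraries, 2.50 to 8.43 CPM per kilobase, and 61.8, 66.5 and 47.5 CPM in vehicle 2N, 4N and unsorted cells and 22.2, 31.6 and 19.7 CPM after CYC065. *Ncapg2* (ENSMUSG00000042029.7, chr12:116405402-116463731) had 192, 207 and 152 CPM with vehicle and 75.6, 119 and 69.3 CPM after CYC065. *Ncaph2* (ENSMUSG00000008690.15, chr15:89355719-89372826) had 219, 237 and 207 CPM with vehicle and 121, 159 and 115 CPM after CYC065. All 3 genes kept the order vehicle 4N, vehicle 2N, vehicle unsorted, CYC065 4N, CYC065 2N and CYC065 unsorted, without overlapping intervals with TMM. Upper quartile scaling kept this order, but brought *Ncaph2* in CYC065 2N and CYC065 unsorted cells to 126 and 124 CPM. *Ncaph2* had the smallest span of the condensin genes, 2.06-fold from lowest to highest, and *Smc2* the widest at 4.04-fold. The log2 ratio in 2N cells was -1.48 (-1.57 to -1.38) for *Ncapd3*, -1.34 (-1.39 to -1.29) for *Ncapg2* and -0.85 (-0.89 to -0.81) for *Ncaph2*. In 4N cells it was -1.07 (-1.15 to -0.996), -0.80 and -0.57.

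*Ncaph2* shares exon bases with *Sco2* (829 bases) and *Tymp* (535 bases) on the opposite strand, *Ncapg* shares 944 bases with *Lcorl*, and *Top2b* 1793 bases with *Rarb*, which had at most 5 counts in a library. The library kit kept strand, but the strand setting used in counting is not given in the sources used here. *Sco2* was at 11.3 to 28.2 CPM and *Lcorl* at 21.6 to 46.1 CPM. Their part in the member values was not tested.

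Counted together, 8 of the 10 genes were lower by more than 2-fold with CYC065 in 2N cells, where 13.3% of 14090 genes were. The 2 others were *Ncaph2* and *Top2b*. In 4N cells 2 of 10 were, *Ncapd3* and *Top2a*, against 11.4% of 14183 genes, and both sat close to the threshold and fell short of it under library size or upper quartile scaling. In unsorted cells 7 of 10 were, against 14% of 14082 genes, with *Smc4*, *Ncaph2* and *Top2b* outside. No member was higher by more than 2-fold in any of these comparisons, where 14.9%, 14.2% and 11.7% of genes were. The median log2 ratio of the 10 was -1.36 in 2N, -0.72 in 4N and -1.21 in unsorted cells, and the median over all genes tested was -0.07, -0.03 and -0.07. At a log2 ratio below -0.5, 9 of the 10 were lower in each population, against 29.9%, 27.2% and 29.8% of genes. In a bulk sample, fewer cells of a type and less RNA of these genes per cell cannot be told apart.

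**Figure D2:**
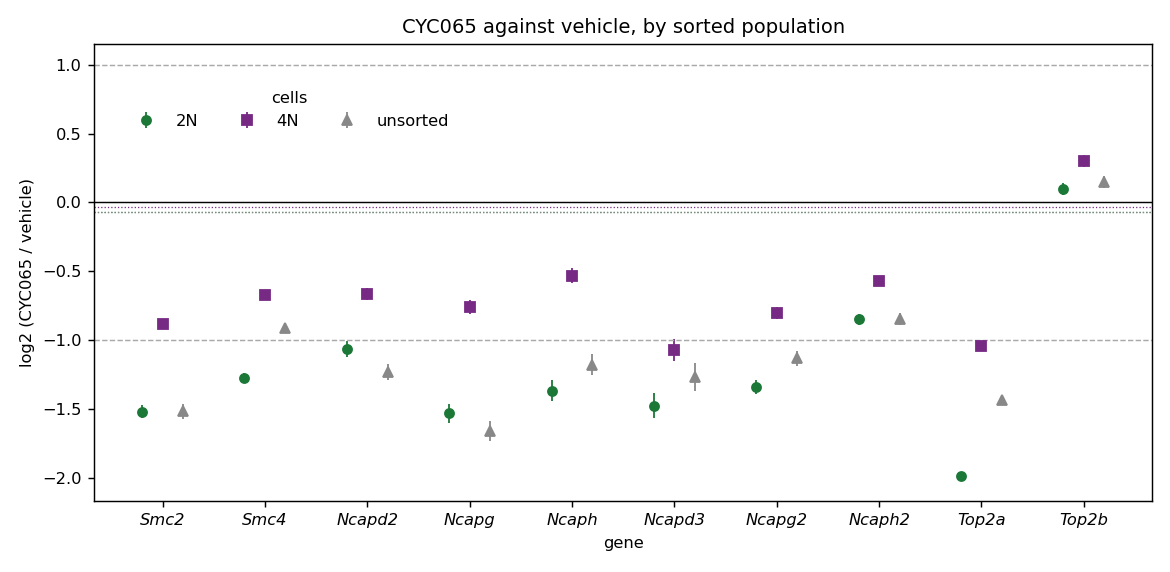
CYC065 against vehicle for each gene. The vertical axis is the log2 ratio with its 95% counting interval, for 2N (circles), 4N (squares) and unsorted cells (triangles), dashed lines mark 2-fold and dotted lines the median of all genes tested. The 4N point lies above the 2N point in all 10 genes, and *Top2b* is the single gene above 0.

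To ask how the polyploid fraction differed from the diploid fraction, 4N and 2N libraries were compared within each treatment. With vehicle, 8 condensin genes and *Top2a* had a higher level in 4N than in 2N cells, by log2 ratios of 0.11 to 0.52, and *Top2b* had a lower one, at -0.16 (-0.21 to -0.12). None of the 10 was beyond 2-fold, and 1.03% of 13365 genes were higher and 1.69% lower to that degree. The widest ratios with vehicle were those of *Top2a*, at 0.52 (0.51 to 0.54), *Ncapd2*, at 0.42 (0.38 to 0.47), and *Smc4*, at 0.37 (0.34 to 0.40).

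After CYC065 the 4N to 2N ratios were larger. *Top2a* was 2.77-fold higher in 4N cells, a log2 ratio of 1.47 (1.446 to 1.499). *Ncaph*, at 1.12 (1.05 to 1.20), and *Ncapg*, at 1.10 (1.03 to 1.17), were the other members past 2-fold, which makes 3 of 10 against 1.59% of 14180 genes. All 3 calls were lost with an assumed spread between cultures (coefficient of variation 0.2), which also took the calls over all genes from 515 to 42. *Smc4* and *Smc2* had ratios of 0.97 (0.94 to 1.01) and 0.90 (0.85 to 0.95), and *Ncapd2* 0.82 (0.76 to 0.88). Condensin II genes were lower in the order, with *Ncapg2* at 0.65 (0.60 to 0.70), *Ncapd3* at 0.51 (0.41 to 0.61) and *Ncaph2* at 0.39 (0.35 to 0.44). *Top2b* was at 0.04 (0.00 to 0.08), too small for a direction to be read from it. A log2 ratio above 0.5 was reached by 8 of the 10 genes, as by 5.85% of all genes tested. The median of the 10 was 0.86 after CYC065 and 0.27 with vehicle, against 0.02 and 0.01 over all genes tested.

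The difference between the 2 ratios was positive in all 10 genes, with a median of 0.57 against 0.02 over all genes tested. The share of all genes with a positive difference was not counted. It was 0.95 (0.92 to 0.98) for *Top2a*, 0.84 (0.74 to 0.93) for *Ncaph*, 0.77 (0.69 to 0.85) for *Ncapg* and 0.64 (0.58 to 0.70) for *Smc2*. It was smallest for *Top2b*, at 0.20 (0.14 to 0.26), and *Ncaph2*, at 0.28 (0.22 to 0.34). No member differed by more than 1, where 7.31% of 14482 genes did in either direction, and 6 of 10 were above 0.5, where 10.4% of genes were. The wider ratio came with a lower level in 2N cells. With TMM, CYC065 4N cells had 51.2 to 84.4% of the vehicle 2N level of each condensin gene and 69.8% of that of *Top2a*. These levels were thus below those of vehicle-treated diploid cells, but the gap depended on the scaling. With library size scaling *Ncapd2* had 115 CPM in CYC065 4N and 123 in vehicle 2N cells, and *Ncaph* 80.5 and 85.9. Gaps of this size were not tested against a spread between cultures.

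**Figure D3:**
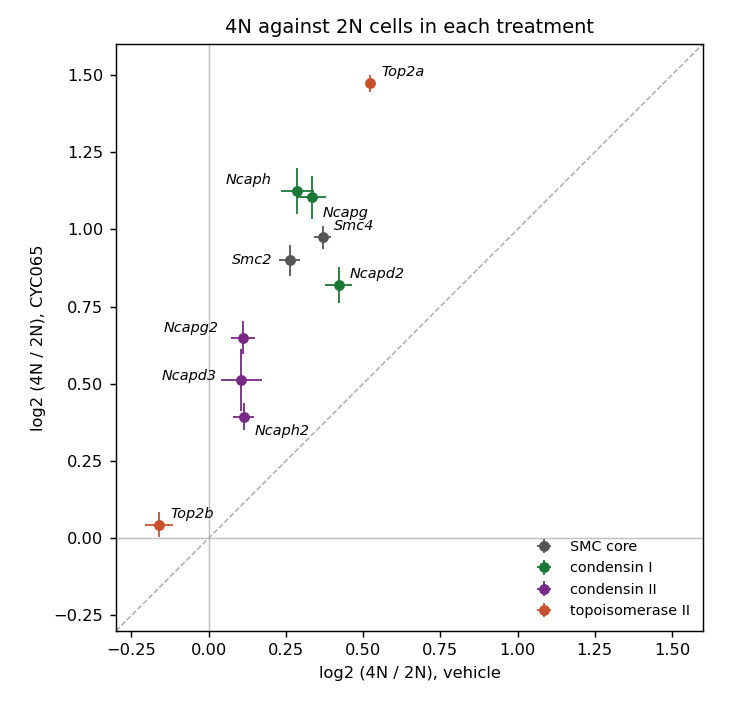
The 4N to 2N log2 ratio of each gene with vehicle (horizontal axis) and after CYC065 (vertical axis), with 95% counting intervals and the line of equal ratios dashed. All 10 genes lie above the line, the condensin I genes in green at 0.82 to 1.12 after CYC065 and the condensin II genes in purple at 0.39 to 0.65.

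The condensin I genes lay above the condensin II genes in this comparison. The condensin I genes had a median 4N to 2N log2 ratio of 1.10 after CYC065 and the condensin II genes 0.51, and with vehicle the medians were 0.33 and 0.11. In neither treatment did the ratios of the 3 condensin I genes overlap those of the 3 condensin II genes. How often 3 genes separate from 3 others in this way was not tested, and the genes of a complex are not replicates of it. After CYC065 the nearest were *Ncapd2*, at 0.82, which has the shared sequence described above, and *Ncapg2*, at 0.65. Summed per kilobase within a library, condensin I transcripts were 0.722 times condensin II transcripts in vehicle 2N cells and 0.851 times in vehicle 4N cells. *Ncaph2* weighs most in the condensin II sum. In vehicle 2N cells it had 52.2 CPM per kilobase, against 19.3 for *Ncapg2* and 7.83 for *Ncapd3*. After CYC065 the quotient was 0.593 in 2N and 0.865 in 4N cells, and in unsorted cells it was 0.839 with vehicle and 0.642 after CYC065. The quotient was therefore 1.46-fold higher in 4N than in 2N cells after CYC065 (log2 0.54, 0.49 to 0.60) and higher by a log2 of 0.24 (0.20 to 0.28) with vehicle. Between treatments the 4N libraries differed by a log2 of 0.02 (-0.02 to 0.06), which counting error covers, and the 2N libraries by -0.28 (-0.33 to -0.23).

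The paralogous subunits did not all take part equally. *Ncaph* over *Ncaph2* per kilobase was 0.394 in 2N and 0.444 in 4N cells with vehicle, and 0.275 in 2N and 0.456 in 4N cells after CYC065. *Ncapg* over *Ncapg2* was 0.850, 0.992, 0.746 and 1.02 in the same libraries. Both quotients were lowest in CYC065 2N cells and near each other in the 4N libraries of the 2 treatments. *Ncapd2* over *Ncapd3* had another order, at 2.59, 3.22, 3.45 and 4.27, and so was higher with CYC065 in both populations, with the sequence shared by *Ncapd2* described above.

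**Figure D4:**
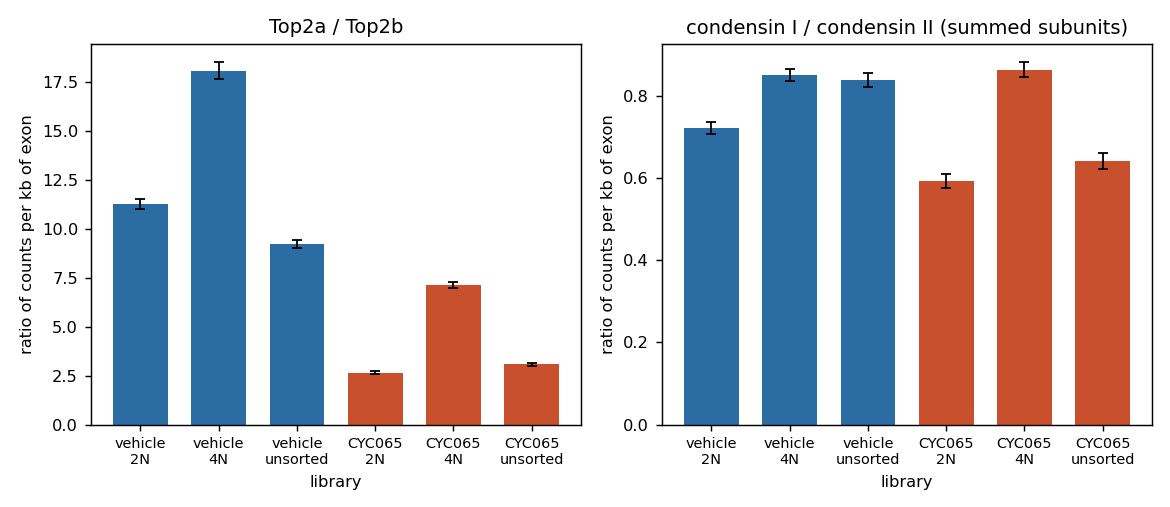
Quotients of counts per kilobase of exon within each library, for *Top2a* over *Top2b* (left) and the summed condensin I over the summed condensin II subunits (right), with bars from 0 and 95% counting intervals. The left quotient runs from 2.65 in CYC065 2N to 18.1 in vehicle 4N cells, and the right one from 0.593 in CYC065 2N to 0.865 in CYC065 4N cells.

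The unsorted libraries were not simply between the sorted ones, although after CYC065 their place depended on the scaling. With vehicle, only *Ncapd2* and *Ncapg* had an unsorted level between those of 2N and 4N cells, 7 members lay below both and *Top2b* above both. Few genes differed by more than 2-fold between those 2 sorted libraries (1.03% higher and 1.69% lower in 4N cells). The share of all genes outside their sorted levels was not counted, so this placement is not shown to be particular to the members. After CYC065, *Smc4*, *Ncaph* and *Top2a* lay between, *Top2b* above both and the other 6 below both, although the gaps to 2N cells for *Ncapd2*, *Ncapg* and *Ncaph* were within counting error. With library size scaling *Ncaph* and *Top2b* lay below both, and with DESeq2 size factors or upper quartile scaling *Ncapd2* lay between. Vehicle libraries kept their place under all 3. Sorted and unsorted libraries also differed in the share of counts held by *Gm26917*, the most counted gene, which was 7.49% and 10.6% in the unsorted and 1.39 to 6.30% in the sorted libraries.

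Other genes that act on chromosome structure give a setting for these values. In the cohesin core, the ring that holds sister chromatids, 1 of 5 genes was lower by more than 2-fold with CYC065 in 2N cells (*Stag1*, -1.09) and 0 of 5 were higher in 4N than in 2N cells after CYC065, with medians of -0.70 and 0.36. Of 10 cohesin regulators, 2 were lower with CYC065 in 2N cells, led by *Sgo1*, which guards centromeric cohesion, at -1.17. *Hdac8*, the SMC3 deacetylase, was the highest at 0.80. *Sgo1* was also the 1 regulator past 2-fold between 4N and 2N cells after CYC065, at 1.02, and the medians were -0.37 and 0.29. In the SMC5/6 complex, which acts in DNA repair, 1 of 7 was lower in 2N cells (*Nsmce3*, -1.21), *Nsmce2* was the highest at 0.53, and none was past 2-fold between 4N and 2N cells after CYC065, with medians of -0.68 and 0.16. Of 6 other topoisomerases and enzymes that clear their DNA adducts, 2 were lower in 2N cells, led by *Top3b* at -1.23, and none was past 2-fold between 4N and 2N cells after CYC065, with medians of -0.59 and 0.23.

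Partners of condensation, such as mitotic kinases and chromosome surface proteins, were closer to the members. With CYC065 6 of 10 were lower by more than 2-fold in 2N cells, led by *Haspin*, the histone H3 kinase, at -1.97, and 6 of 10 were higher in 4N than in 2N cells, led by *Plk1*, the polo-like kinase, at 1.33. Their medians were -1.43 and 1.11. Markers of cell cycle phase also moved with the groups. All 10 S phase markers were lower by more than 2-fold with CYC065 in 2N cells (median -1.74), and their 4N to 2N median was -0.18 with vehicle and 0.21 after CYC065. Of 8 G2/M markers 6 were lower by more than 2-fold with CYC065 in 2N cells (median -1.36), but 1 was higher, at 0.35. Their 4N to 2N median was 0.82 with vehicle and 1.20 after CYC065, with 0 and 6 of 8 past 2-fold. The part of cell cycle phase in the member values was not tested.

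Profiles were compared over the 6 libraries after each gene's log2 CPM had been centred on its mean, among 8996 genes with a mean of at least 10 CPM, by root mean square difference. The nearest to *Top2a* were *Kif11* (0.11), *Prc1* (0.11), *Espl1* (0.11), *Kif4* (0.13) and *Kif23* (0.15), of which *Kif11* encodes a spindle motor and *Espl1* separase. The nearest to the mean of the 8 condensin genes were *Ska2* (0.08), *Cep295*, *Atad2*, *Brip1* and *Gm9855*. The nearest to *Top2b* were *Ice1* (0.03), *Rps6kc1*, *Dip2c*, *5031439G07Rik* and *Zfp26*. Among the members, *Ncapd3* and *Ncapg2* were closest (0.10), then *Smc4* and *Ncaph* (0.11), and *Top2a* and *Top2b* farthest apart (0.99). The distances did not follow the complexes in every case, since *Ncaph2* was nearer to *Ncapd2* (0.20) than to *Ncapd3* (0.28). These 6 points share libraries and scaling, and the distances are descriptions.

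**Figure D5:**
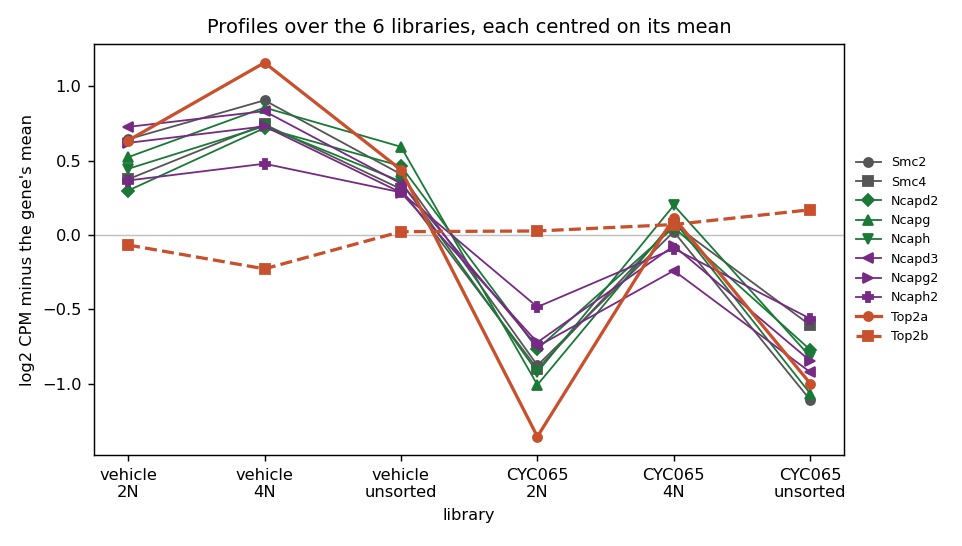
Profiles of the 10 genes over the 6 libraries, as log2 CPM minus each gene's own mean. Lines join the points of 1 gene and imply no order of libraries. The 8 condensin genes and *Top2a* are above their mean in the 3 vehicle libraries and lowest in CYC065 2N or CYC065 unsorted cells, and *Top2b* (dashed) is nearly flat.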

How the data were processed

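The 18 deposited samples came from a stranded, ribosomal RNA-depleted total RNA kit. They are titled as 3 replicates of each of 6 conditions and were counted here as 6 libraries. The authors trimmed reads, aligned them to mm10 with STAR and estimated counts for GENCODE M21 genes with RSEM. The submitters' notes name bcl2fastq 2.17, Cutadapt 1.18, STAR 2.7.0f and RSEM 1.3.1. The deposited values are expected counts, neither normalized nor filtered, and 9.66% of genes have a fractional value. Here the 3 columns of a condition were summed and rounded, and 6 libraries were scaled together with TMM. Ratios used a prior count of 0.125, genes whose summed count reached 30 in 1 of the libraries compared, and exact 95% counting intervals (conditional binomial, or a normal approximation for differences of ratios and quotients). The 10 genes and all lists were chosen with earlier results of these data known. All members were named. Of the first 5 other lists only the genes with the highest and lowest ratio were eligible to be named, and likeness took the 5 nearest genes. Levels per kilobase used merged exon length. Quotients between genes shift with the length used. With the longest transcript, *Top2a* over *Top2b* in vehicle 2N cells was 13.7 in place of 11.3. *Ncapg* over *Ncapg2* in CYC065 4N cells was 0.856 in place of 1.02.

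Alternatives were scaling by library size, upper quartile or DESeq2 size factors, other filters and priors, leaving out a column, DESeq2 on the 3 columns, and edgeR on them with and without the column number as a block. The order of libraries under other scalings was added after seeing the data. The common coefficient of variation among columns, 0.0288, holds no spread between cultures, so fixed values of 0.1 and 0.2 were also tried. Steps were tested on simulated data. Calculations used R 4.3.3, edgeR 4.0.16, DESeq2 1.42.0 and Python 3.11.15.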

Additional observations from a re-analysis of the deposited data

Results flagged for a closer look

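The ratio of *Top2b* between 4N and 2N cells had opposite signs in the 2 treatments. Its log2 ratio was -0.16 (-0.21 to -0.12) with vehicle and 0.0433 (0.0029 to 0.0837) after CYC065, a difference of 0.20 (0.14 to 0.26). The value after CYC065 was not past the threshold even against the spread between columns, with a log2 ratio of 0.02 and an adjusted p of 0.355 by edgeR's quasi-likelihood test (0.376 with the replicate block), so its direction is not established. The intervals cover counting error only, with 1 library per condition, and the difference between treatments was not tested against any spread between cultures.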

How the results depend on the processing

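All 600 member log2 ratios kept their sign under the alternatives of scaling, prior count, left-out column and edgeR, and the largest shift was 0.18, under upper quartile scaling. The median of all genes moved with scaling, in 2N cells from -0.07 to 0.07 and in 4N cells from -0.03 to 0.11 under library size, and in unsorted cells from -0.07 to 0.11 under upper quartile. Member counts in 2N cells ranged from 7 to 8 and in unsorted cells from 5 to 7. *Ncapd2* was the member lost in 2N cells under library size scaling, at -0.93.

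The 2 members called lower in 4N cells became 0 under library size and upper quartile scaling, 0 under edgeR on the columns with or without the replicate block, 1 with the whole interval beyond 1, 1 under DESeq2, and 1 or 0 at an assumed coefficient of variation of 0.1 or 0.2. The 3 members higher in 4N than in 2N cells after CYC065 became 0 at 0.2. The calls split 2098 higher and 1872 lower in 2N, 2015 and 1621 in 4N, and 1654 and 1965 in unsorted cells. Library size scaling gave 2460 and 1453 in 2N and 2436 and 1228 in 4N, and upper quartile scaling gave 2083 and 1465 in unsorted cells.

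Genes beyond 2-fold numbered 3970, 3636 and 3619 for CYC065 in 2N, 4N and unsorted cells, 364 and 515 for 4N against 2N with vehicle and CYC065, and 1058 for the difference. Without a filter these were 11768, 11127, 10475, 5629, 7609 and 10233, since genes with few counts enter. The last 3 became 120, 216 and 313 at a summed count of at least 100 and 70, 162 and 105 with the interval wholly beyond 1. They were 22, 42 and 16 at an assumed coefficient of 0.2, and at 0.1 the first became 233 and the last 147. The difference had 542 genes under edgeR, 531 with the replicate block and 343 under DESeq2. The part of each choice beyond this was not tested.

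Column numbers did not pair the samples: 45 correlations of same-numbered deviations ran from -0.30 to 0.54 (median -0.04), and 25 of 90 column comparisons were best with their own number. Leaving out columns 1 to 3 in turn left each count of members called as it was. With 1 library per condition, no spread between cultures was measured.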
